A study of Mus musculus with 6 samples.

Results

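Transcripts of 9 CC chemokines, Ccl2, Ccl3, Ccl4, Ccl5, Ccl6, Ccl7, Ccl8, Ccl9 and Ccl12, were described in purified cerebellar microglia of Fmr1 knockout mice. They were taken by gene symbol from a table of read counts for 23491 gene symbols, and all 9 had a row and passed the filter on low counts that left 14727 genes for testing. The saline group (3 libraries, called sham in the titles) and the poly(I:C) group (3 libraries, after intraperitoneal injection) were both Fmr1 knockout, a mouse model of fragile X syndrome, and no group with intact Fmr1 was analysed. Poly(I:C) is a synthetic double-stranded RNA used in place of a virus to raise an antiviral response. The labels give neither age, dose nor the time between injection and sampling, and do not say whether the replicates were separate animals, so the spread behind each p-value is that between samples and may be only technical. Cells were enriched on magnetic beads for CD11b, an integrin found on microglia and also on blood monocytes, neutrophils and other macrophages.

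CC chemokines are small secreted proteins that draw leukocytes along a gradient by binding G protein-coupled receptors. They are named for a pair of adjacent cysteines near the start of the mature protein. Ccl2, Ccl7, Ccl8 and Ccl12 are the monocyte chemoattractant proteins, of which Ccl2, Ccl7 and Ccl12 bind the receptor Ccr2. Ccl3, Ccl4 and Ccl5 attract T cells, monocytes and other leukocytes, and Ccl6 and Ccl9 are close relatives that mouse myeloid cells make without stimulation. Several of these genes are induced by NF-kB, by interferon signalling or by both.

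All 9 genes lie on chromosome 11 in the RefSeq gene order. Ccl2, Ccl7, Ccl12 and Ccl8 lie in 1 run, interrupted only by Ccl11, and Ccl5, Ccl9, Ccl6, Ccl3 and Ccl4 follow each other in a second run, with 25 other protein-coding genes between Ccl1, the end of the first run, and Ccl5. The 36 coding bases around the cysteine pair are shown for 8 members because they define the family and show how far its members differ, which bears on whether reads can be assigned. They come from the GENCODE vM21 transcripts matched by symbol, read 5′ to 3′ in frame, and the capitals mark the codons of the adjacent cysteines.
Ccl2: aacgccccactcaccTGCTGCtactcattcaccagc
Ccl7: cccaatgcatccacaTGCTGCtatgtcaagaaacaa
Ccl8: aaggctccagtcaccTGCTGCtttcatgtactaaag
Ccl12: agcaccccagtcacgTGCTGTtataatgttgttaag
Ccl5: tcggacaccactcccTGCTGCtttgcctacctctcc
Ccl4: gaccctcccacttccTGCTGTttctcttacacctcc
Ccl6: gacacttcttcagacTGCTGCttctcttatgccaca
Ccl9: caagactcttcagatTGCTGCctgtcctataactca
Ccl4 and Ccl12 use TGCTGT for the pair and the other 6 shown use TGCTGC. With gaps left out, the coding sequences of Ccl2 and Ccl7 were 72.4% identical over 290 aligned bases, and those of Ccl6 and Ccl9 70.8% over 342. By this measure the highest identity of any pair was 74.6%, between Ccl2 and Ccl4 over 268 aligned bases. Their coding sequences are 444 and 276 bases long, and the longest exact run shared by their transcripts was 11 bases. Leaving out gaps can raise identity where lengths differ, so these values do not rank how closely members are related. Over all 36 pairs of members, the longest exact run shared by their transcripts was 25 bases, between Ccl6 and Ccl9, followed by 23 bases between Ccl2 and Ccl7. The sources used here give neither the read length nor the counting mode. Ccl3 and Ccl4 are transcribed from opposite strands, and strand was not recorded. The longest exact run shared by their transcripts was 9 bases, and whether the genes overlap on the chromosome was not examined.

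Libraries held between 33710545 and 34899835 counts. Counts were scaled to a common library total (CPM) with edgeR's TMM factors, and 3 counts then corresponded to between 0.0852 and 0.0912 CPM, a limit that covers counting error only. Markers of microglia such as P2ry12 and Sall1 were at summed levels of 35722 to 41560 CPM in saline and 28131 to 38917 CPM in poly(I:C), and all 9 measured ones had counts. Markers of neutrophils summed to 19551 CPM in saline replicate 1, to 2353 and 2317 CPM in the other saline libraries, and to between 467 and 2194 CPM in poly(I:C). All 10 neutrophil markers had lower means with poly(I:C), 9 of them at an unadjusted p under 0.05 in edgeR, with a median log2 difference of −2.69 and adjusted p between 0.169 and 0.384. Choroid plexus markers summed to 4054, 8450 and 3959 CPM in saline and to 19429, 7666 and 9325 CPM in poly(I:C). All 9 had higher means with poly(I:C), 8 of them at an unadjusted p under 0.05, with a median log2 difference of 1.30 and edgeR adjusted p between 0.178 and 0.266. Markers of border-associated macrophages summed to between 1652 and 2243 CPM in saline and to between 1155 and 1557 CPM in poly(I:C). Of these 10 markers 2 were higher and 8 lower in log2 difference. At an unadjusted p under 0.05 in edgeR 0 were higher and 3 lower, and 0 were called. The unadjusted threshold was passed by 10.5% of all tested genes on the higher side and by 10.8% on the lower. The part of these cells in the CC chemokine differences was not tested. Saline replicate 1 was far from the other saline libraries in the neutrophil sum, and poly(I:C) replicate 1 from the other poly(I:C) libraries in the neutrophil, microglia and choroid plexus sums, so the differences are also given without both.

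In saline the members covered a wide range of levels. Per kilobase of exon, where genes can be compared, Ccl3 was at 147 ± 30.4 CPM and Ccl4 at 108 ± 14.1 CPM (SD, n = 3), and their ranges overlapped. Ccl6 followed at 61.7 ± 7.95 CPM per kilobase. Ccl12, Ccl9 and Ccl2, at 39.9 ± 7.14, 39.8 ± 3.44 and 32.1 ± 6.93 CPM per kilobase, overlapped each other. Below them and without overlap between neighbours came Ccl7 at 17.8 ± 5.72, Ccl5 at 4.22 ± 1.89 and Ccl8 at 1.02 ± 0.888 CPM per kilobase. In poly(I:C) Ccl12 stood at 132 ± 54.1 CPM per kilobase, beside Ccl3 at 164 ± 43.7 and Ccl4 at 130 ± 39.8, and the ranges of these 3 genes overlapped. Ccl5 stood at 17.5 ± 3.52 CPM per kilobase, where its range overlapped that of Ccl7. Exon lengths came from a gene model of an earlier genome build and include introns retained in some transcripts, so the order can shift where lengths differ.

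The question put to these libraries was whether CC chemokine transcripts of cerebellar microglia differ after a systemic antiviral stimulus. Ccl5 and Ccl12 had the largest differences of the 9, and in each of them every poly(I:C) library was above every saline library. Ccl2, Ccl7 and Ccl8 had higher means with overlapping groups, while Ccl3 and Ccl4 differed little and Ccl6 and Ccl9 had slightly lower means. With edgeR's quasi-likelihood test, adjusted by Benjamini-Hochberg over all 14727 genes, 0 of 9 members were called in either direction at an adjusted p under 0.05, where 0.883% of all tested genes were called higher and 0.0747% lower. At an unadjusted p under 0.05, 4 members were higher (Ccl2, Ccl5, Ccl7 and Ccl12), against 10.5% of all genes, and 1 was lower (Ccl6), against 10.8%. DESeq2 called 3 members higher, against 3.76% of genes, and limma-voom with quality weights called 4, against 8.61%. The median log2 fold change of the members was 0.87 and that of all tested genes 0.01. Groups did not overlap for 2 of 9 members, both higher, against 14% of all genes on the higher side and 14.3% on the lower.

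**Figure D1:**
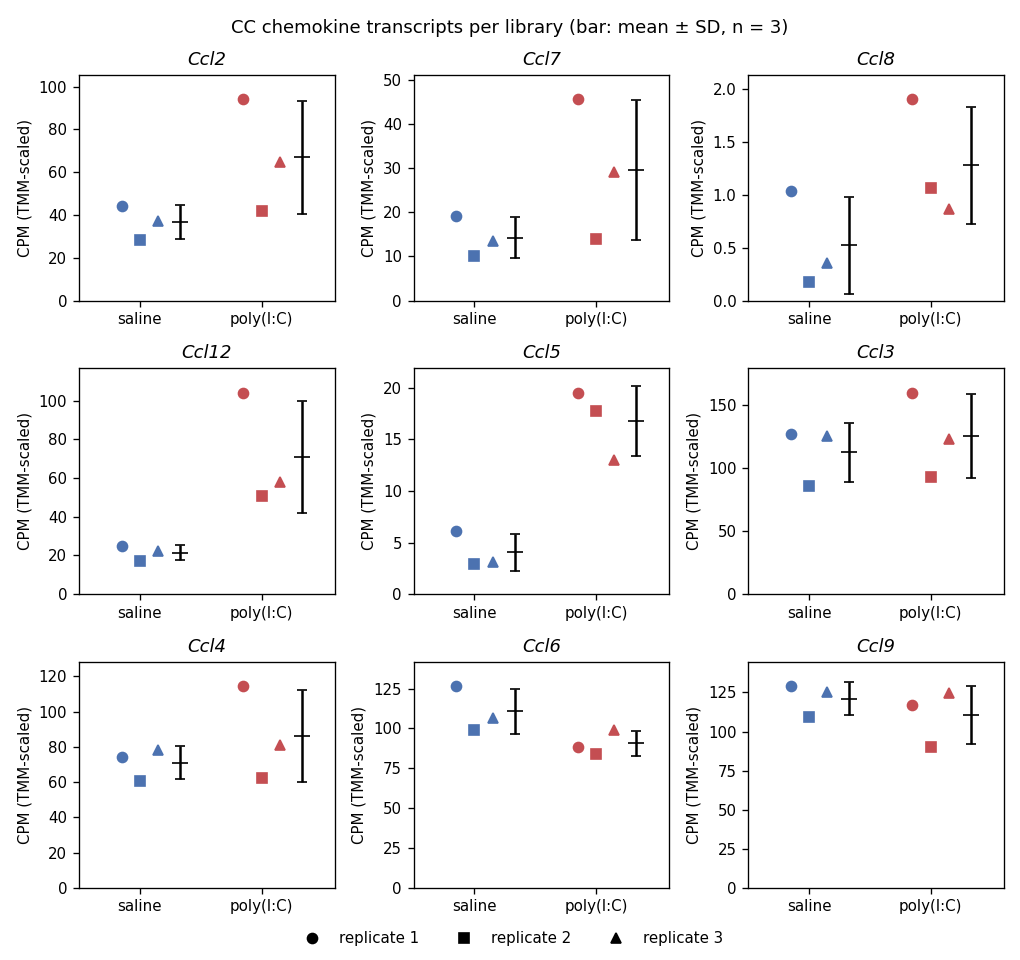
CPM scaled by TMM for the 9 CC chemokines in each library, with saline in blue and poly(I:C) in red, one symbol per replicate, and black bars for mean ± SD over 3 libraries. Ccl5 and Ccl12 are separated between groups, from 2.89 to 6.14 against 13.02 to 19.5 CPM and from 17.2 to 24.6 against 50.7 to 104 CPM, and the other 7 overlap.

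Ccl5, or RANTES, attracts T cells and monocytes. Its saline libraries had 202, 100 and 106 counts, or 6.14, 2.89 and 3.12 CPM, and its poly(I:C) libraries had 688, 602 and 453 counts, or 19.5, 17.8 and 13.02 CPM. The lowest poly(I:C) library was thus above the highest saline library, saline replicate 1. The difference was 4.14-fold, a log2 fold change of 2.05 (SE 0.34, 95% interval 1.25 to 2.86), and missed the threshold in edgeR (adjusted p = 0.0552). Without saline replicate 1 the log2 fold change was 2.47 and passed in edgeR (adjusted p = 0.00560), in a fit that called 1.1% of genes higher. Without both replicates 1 it was 2.38 (edgeR adjusted p = 0.00212), where 2.4% of genes were called higher. With any 1 of the other 5 libraries left out, it lay between 1.85 and 2.20 and did not pass, with edgeR adjusted p between 0.0790 and 0.251. In DESeq2 the adjusted p was 9.06e-08 and in limma-voom 0.00635.

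T cells and natural killer cells also make Ccl5. Markers of these cells summed to 37.7, 9.73 and 8.78 CPM in the saline libraries and to 6.99, 17.6 and 19.3 CPM in the poly(I:C) libraries. Saline replicate 1, the highest saline library for Ccl5, was also the highest of the 6 for these markers, while poly(I:C) replicate 1, the highest of all for Ccl5, was the lowest. Of the 7 tested markers 1 was higher and 1 lower at an unadjusted p under 0.05 in edgeR, against 10.5% and 10.8% of all tested genes. Gzmb, which encodes a granzyme of cytotoxic cells, had means of 1.43 ± 1.06 CPM with saline and 3.78 ± 1.62 CPM with poly(I:C) (edgeR adjusted p = 0.235). Nkg7, a cytotoxic granule gene, had means of 7.34 ± 9.19 and 0.977 ± 0.408 CPM (adjusted p = 0.188). The T cell receptor complex genes Cd3d, Cd3e and Cd3g, chosen after their values were seen, were below the filter and had means of at most 0.110 CPM in either group. In bulk samples fewer cells of a type and less RNA per cell cannot be told apart, and the part of these cells in the Ccl5 level was not tested.

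Ccl12, or MCP-5, is a Ccr2 ligand that attracts monocytes. Its counts were 810, 595 and 761 with saline, against 3666, 1715 and 2011 with poly(I:C). On the CPM scale the saline libraries were at 24.6, 17.2 and 22.4 and the poly(I:C) libraries at 104, 50.7 and 57.8. The groups did not overlap, and poly(I:C) replicate 1 was far above the other poly(I:C) libraries. Ccl12 was 3.31-fold higher, a log2 fold change of 1.73 (SE 0.29, 95% interval 1.03 to 2.43), which also missed the threshold in edgeR (adjusted p = 0.0604). Leaving out poly(I:C) replicate 1 lowered the log2 fold change to 1.36 and brought it past the threshold in edgeR (adjusted p = 0.0332), in a fit that called 0.702% of genes higher. Without both replicates 1 it was 1.48 (edgeR adjusted p = 0.00259), and without any 1 of the other 5 libraries it was between 1.59 and 1.91 with adjusted p between 0.0579 and 0.260. DESeq2 gave an adjusted p of 9.17e-08 and limma-voom 0.00498.

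Ccl2, or MCP-1, is the best known Ccr2 ligand. Its levels were 44.2, 28.4 and 37.1 CPM in saline and 94.2, 41.7 and 64.8 CPM in poly(I:C). Poly(I:C) replicate 2 lay inside the saline range. Ccl2 had a log2 difference of 0.87 (SE 0.30, 95% interval 0.15 to 1.59), which did not pass in edgeR (adjusted p = 0.194) but did in DESeq2 (adjusted p = 0.0489) and in limma-voom (adjusted p = 0.0239). Without poly(I:C) replicate 1 the edgeR value was 0.56 (adjusted p = 0.370).

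Ccl7, or MCP-3, is the gene next to Ccl2 and a further Ccr2 ligand. Its libraries were at 19.2, 10.1 and 13.4 CPM in saline and at 45.6, 14.0 and 29.1 CPM in poly(I:C). As for Ccl2, poly(I:C) replicate 2 lay among the saline libraries and replicate 1 was the highest. The log2 difference of 1.06 (SE 0.43, 95% interval 0.030 to 2.08) did not pass in edgeR (adjusted p = 0.228), and without poly(I:C) replicate 1 it was 0.62 (adjusted p = 0.482). Limma-voom called it higher (adjusted p = 0.0461).

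Ccl8, or MCP-2, was scarce. Its counts were 34, 6 and 12 with saline, against 67, 36 and 30 with poly(I:C), or 1.03, 0.17 and 0.35 CPM against 1.90, 1.06 and 0.86 CPM. Saline replicate 1 overlapped the poly(I:C) libraries. The log2 difference of 1.29 had an SE of 0.70 and a 95% interval from −0.37 to 2.96 (edgeR adjusted p = 0.311), and it was 2.24 without saline replicate 1 (adjusted p = 0.183).

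**Figure D2:**
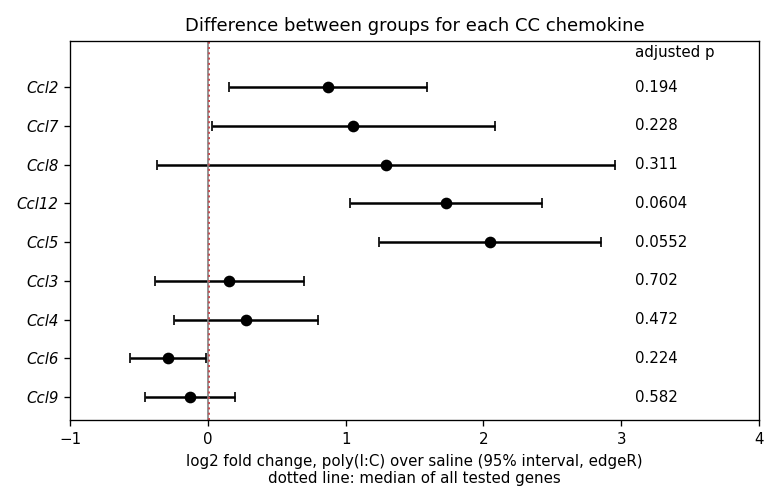
Log2 fold change of each CC chemokine with its 95% interval from the edgeR fit over all 6 libraries, with the adjusted p at the right and the median of all tested genes as a dotted line. The intervals of Ccl12, from 1.03 to 2.43, and Ccl5, from 1.25 to 2.86, lie farthest from 0, and no adjusted p is under 0.05.

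Ccl3 and Ccl4, the macrophage inflammatory proteins 1 alpha and 1 beta, attract monocytes and T cells. Ccl3 was at 127, 85.7 and 125 CPM in saline and at 160, 93.2 and 123 CPM in poly(I:C). Only poly(I:C) replicate 1 was above the saline range. Its log2 difference was 0.16 (SE 0.23, 95% interval −0.39 to 0.70, edgeR adjusted p = 0.702), and the sign turned without saline replicate 2 (−0.0097) or without poly(I:C) replicate 1 (−0.036).

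Ccl4 was at 74.1, 60.6 and 78.4 CPM in saline and at 114, 62.6 and 81.1 CPM in poly(I:C). Poly(I:C) replicates 1 and 3 were above the saline range while replicate 2 lay inside it. The log2 difference was 0.28 (SE 0.22, 95% interval −0.25 to 0.80, edgeR adjusted p = 0.472), and it was 0.038 without poly(I:C) replicate 1, 0.17 without saline replicate 2 and 0.46 without poly(I:C) replicate 2. A difference of up to 0.80 for Ccl4 and up to 0.70 for Ccl3 on the log2 scale lies within these intervals.

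Ccl6 and Ccl9 were the only members with lower means in poly(I:C). Ccl6 stood at 127, 98.8 and 107 CPM in saline and at 88.6, 84.0 and 99.2 CPM in poly(I:C), and poly(I:C) replicate 3 was just above saline replicate 2. Its log2 difference was −0.29 (SE 0.12, 95% interval −0.57 to −0.013, edgeR adjusted p = 0.224), and it was −0.19 without saline replicate 1. Ccl9 stood at 129, 109 and 125 CPM in saline and at 117, 89.8 and 125 CPM in poly(I:C), with groups that overlapped. For Ccl9 the log2 difference was −0.13 (SE 0.14, 95% interval −0.46 to 0.20, edgeR adjusted p = 0.582), limma-voom gave 0.00016, and edgeR gave −0.0065 without poly(I:C) replicate 2.

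**Figure D3:**
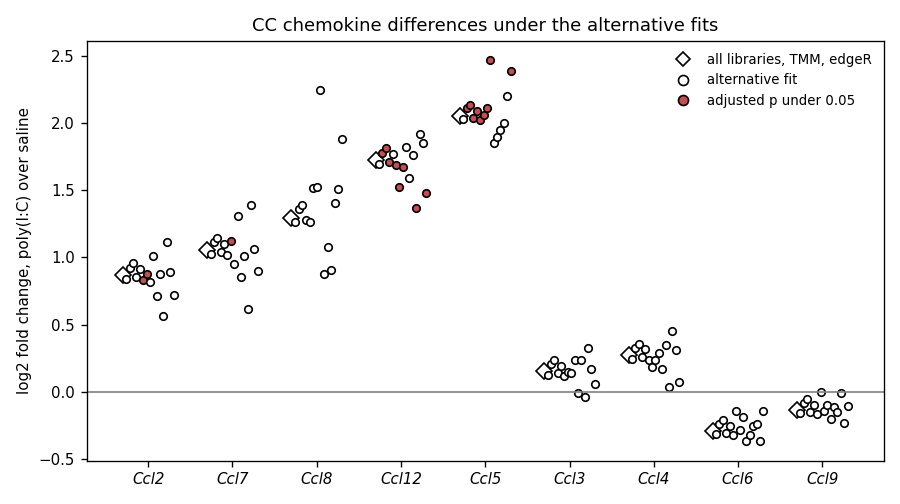
Log2 fold change of each CC chemokine in the fit with all libraries (diamonds) and in the alternative fits (circles), filled red where the adjusted p was under 0.05. Ccl5 passed in 9 of 15 alternative fits and Ccl12 in 8 of 15, Ccl2 passed in 2 and Ccl7 in 1, and Ccl3 and Ccl9 have values on both sides of 0.

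Most members varied in a similar order between libraries of a group. How many of all tested genes share that order was not counted. Saline replicate 2 was the lowest saline library for all 9 members and saline replicate 1 the highest for 8. Poly(I:C) replicate 1 was the highest poly(I:C) library for 7 members and poly(I:C) replicate 2 the lowest for 7. Summed over the 9 genes, the saline libraries were at 552, 413 and 512 CPM and the poly(I:C) libraries at 745, 455 and 594 CPM. The sum in poly(I:C) replicate 2 was thus below those of saline replicates 1 and 3.

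After each group's mean was removed, Ccl2 and Ccl7 had a Pearson r of 0.99 over the 6 libraries, Ccl3 and Ccl4 0.95, and Ccl2 and Ccl12 0.93. Ccl5 was less like these genes, at 0.52 with Ccl12 and 0.43 with Ccl2, but was at 0.94 with Ccl8. The lowest value of any pair was 0.092, between Ccl5 and Ccl9, and Ccl6 was at 0.31 with Ccl12. These are descriptions over 6 libraries that share scaling and depth. A list of 16 immediate early and dissociation genes varied in a similar order. Among them were Fos and Egr1, which rise within minutes of stimulation and also during tissue dissociation, and heat shock genes such as Hspa1b. The 16 genes summed to 9979, 6858 and 10258 CPM in saline and to 9181, 7123 and 7372 CPM in poly(I:C), lowest in replicate 2 of each group. Of these sums Hspa1b alone held 2659, 2026 and 3185 CPM in saline and 2450, 1924 and 1941 CPM in poly(I:C). None of the 16 was called between groups by edgeR, by DESeq2 or by limma-voom, and 0 had an unadjusted p under 0.05 in edgeR. Poly(I:C) replicate 1, the highest library for most members, was also the highest for endothelial and pericyte markers, at 416 CPM against 118 to 250 CPM in the other 5 libraries, and for the choroid plexus markers given above. Saline replicate 1, the highest saline library for 8 members, had 3137 CPM of monocyte markers while saline replicates 2 and 3 had 591 and 690 CPM and the poly(I:C) libraries 409 to 997 CPM. Of that sum in saline replicate 1, 1635 CPM were Chil3 and 579 CPM were Cd177, which neutrophils express. Ccr2 was at 43.2 CPM there, at 13.5 and 15.5 CPM in the other saline libraries, and at 40.5, 21.2 and 29.9 CPM in poly(I:C). Of the 10 monocyte markers, 3 were higher and 7 lower in log2 difference with poly(I:C). EdgeR called 1 of them higher, Ms4a4c (adjusted p = 0.0460), where 0.883% of all tested genes were called higher. The part of these cells and of the immediate early and dissociation genes in the CC chemokine levels was not tested. Without both replicates 1 the log2 differences were 2.38 for Ccl5, 1.88 for Ccl8, 1.48 for Ccl12, 0.90 for Ccl7 and 0.72 for Ccl2. They were 0.071 for Ccl4, 0.060 for Ccl3, −0.10 for Ccl9 and −0.14 for Ccl6.

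**Figure D4:**
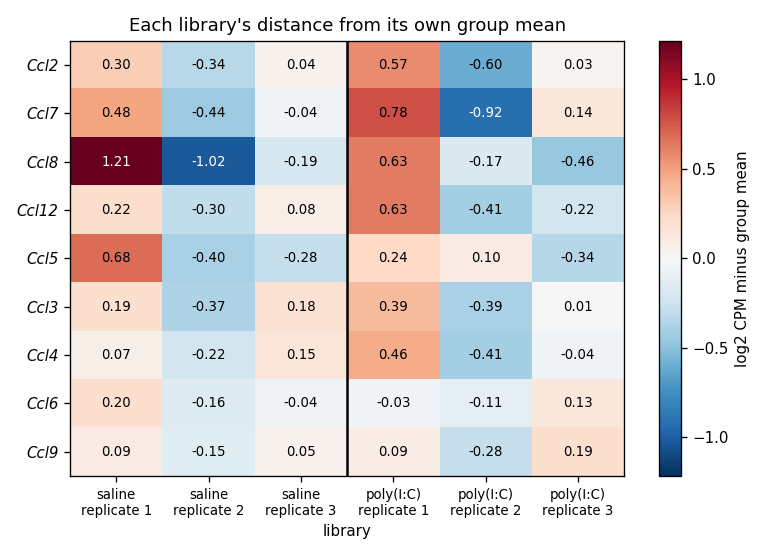
Log2 CPM of each CC chemokine in each library minus the mean of that library's group, red above and blue below it. Saline replicate 2 is below its group mean for all 9 genes, and poly(I:C) replicate 1 is above it for 8, by up to 0.78 for Ccl7.

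Ratios of counts within a library do not depend on scaling, and 4 pairs of related members were compared, chosen after their values were seen. Ccl12 had 0.557, 0.604 and 0.605 reads per read of Ccl2 with saline, against 1.11, 1.22 and 0.892 with poly(I:C). The saline ratios were almost the same in all libraries, 0.589 ± 0.0273 (SD, n = 3), and every poly(I:C) ratio was higher, at 1.07 ± 0.165. An exact two-sided permutation test of the log2 ratios gave p = 0.1, the smallest that 3 against 3 libraries allow, or 0.4 adjusted over the 4 pairs. The ratio of Ccl7 to Ccl2 was 0.384 ± 0.0434 in saline and 0.423 ± 0.0774 in poly(I:C), that of Ccl4 to Ccl3 was 0.640 ± 0.0624 and 0.682 ± 0.0293, and that of Ccl9 to Ccl6 was 1.10 ± 0.0762 and 1.22 ± 0.130. Groups overlapped in these last 3 pairs (exact permutation p = 0.6, 0.4 and 0.3).

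**Figure D5:**
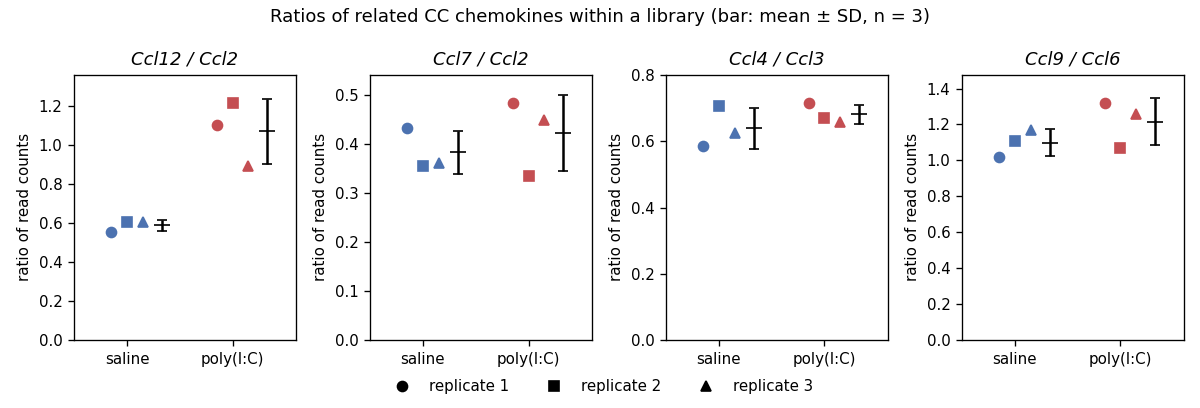
Ratio of read counts of related CC chemokines within each library, one symbol per replicate, with black bars for mean ± SD over 3 libraries. The ratio of Ccl12 to Ccl2 is between 0.557 and 0.605 in saline and between 0.892 and 1.22 in poly(I:C), and the other 3 ratios overlap between groups.

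Genes most like each member were named by the highest Pearson r of log2 CPM over the 6 libraries, among genes outside the lists with a mean of at least 5 CPM. With 6 libraries and so many genes high values are common, so these are descriptions. Group means were not removed, so r includes any difference between groups that both genes share. Ccl5 was most like B2m, the light chain of MHC class I (r = 1.00), and Isg20, an interferon-stimulated exonuclease gene (r = 0.99). EdgeR called Isg20 higher with poly(I:C) at a log2 fold change of 2.14 (adjusted p = 0.0359). B2m had a log2 fold change of 0.54 and did not pass (edgeR adjusted p = 0.0939). Ccl12 was most like Gbp2, an interferon-induced guanylate-binding protein gene, and Nmd3, a ribosome export factor gene (r = 1.00 each). For Ccl2 these were Dipk2a and Fam149a, for Ccl7 Ero1b and Trip12, and for Ccl8 Hcar2 and Fdps. Ccl3 was most like Rgs1, a regulator of G protein signalling, and Dse, Ccl4 like Ctdspl2 and Serpinb8, Ccl6 like Ncor1 and Ubl4a, and Ccl9 like Cbx3 and Pum2, with r between 0.97 and 1.00.

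Promoter sequences were in the RefSeq table (build GRCm38.p6) for 5 of the 9 members, Ccl3, Ccl6, Ccl8, Ccl9 and Ccl12. The 250 bases before the start of Ccl12 and of its neighbour Ccl8, whose means were higher with poly(I:C), and of Ccl6, whose mean was lower, are shown 5′ to 3′ on the gene's strand, with matches to the motifs below in capitals.
Ccl12, chr11:82101595-82101844, plus strand: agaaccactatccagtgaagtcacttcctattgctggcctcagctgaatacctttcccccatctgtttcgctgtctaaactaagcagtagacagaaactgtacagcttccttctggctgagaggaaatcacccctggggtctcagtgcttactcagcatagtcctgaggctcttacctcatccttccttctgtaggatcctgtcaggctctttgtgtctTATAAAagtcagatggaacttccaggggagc
Ccl8, chr11:82114935-82115184, plus strand: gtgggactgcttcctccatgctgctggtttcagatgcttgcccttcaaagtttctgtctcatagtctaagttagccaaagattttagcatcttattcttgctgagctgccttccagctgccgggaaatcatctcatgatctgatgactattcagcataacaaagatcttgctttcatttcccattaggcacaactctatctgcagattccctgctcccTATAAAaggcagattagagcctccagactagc
Ccl6, chr11:83593088-83593337, minus strand: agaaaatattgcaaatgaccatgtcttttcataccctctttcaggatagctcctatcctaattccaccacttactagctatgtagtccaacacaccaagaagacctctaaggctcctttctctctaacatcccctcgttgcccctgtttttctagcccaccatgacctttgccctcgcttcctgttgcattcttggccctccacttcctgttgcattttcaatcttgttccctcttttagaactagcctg
The motifs reported here were searched on both strands with overlaps allowed. They were TATAAA, the core of the interferon-stimulated response element (ISRE, GAAA repeated after any 2 bases), the AP-1 motif TGANTCA and an NF-kB consensus. The NF-kB consensus was taken in the loose form GGRRNNYYCC, where R is A or G, Y is C or T and N is any base. TATAAA was found from 31 to 26 bases before the start of Ccl12 and from 32 to 27 bases before that of Ccl8, and also in Ccl9, 3 of 5 promoters, against 12.4% of all 32851 promoters in the table. The ISRE core was in 0 of the 5, against 2.98% of all promoters. Ccl9 had 1 match to the NF-kB consensus and 1 to TGANTCA, found in 9.55% and 6.75% of all promoters. Among the 3 shown, Ccl6 had no match to any of these motifs in this window.

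Of the other CC chemokines listed, 13 had a row and 6 were tested. Ccl19, a ligand of Ccr7 that guides dendritic cells and T cells, was the only one called, with counts of 1, 1 and 0 in the saline libraries and 33, 15 and 25 in the poly(I:C) libraries. Pooled over libraries the ratio was 35.7, with a 95% counting interval from 9.53 to 300.1, and the edgeR adjusted p was 0.0497. It did not pass when any 1 library was left out, with edgeR adjusted p between 0.0670 and 0.242, nor without both replicates 1 (0.0593) or without the filter (0.0605). The Ccl19 and Ccl21 genes have near-identical copies in the mouse genome, so the assignment of their reads is uncertain. Ccl21a and Ccl25 had log2 differences of 1.87 and 0.65 that did not pass in edgeR (adjusted p = 0.240 and 0.282). Ccl1 and Ccl20 were at 0 counts throughout, which at this depth allows levels up to 0.0912 CPM per library.

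Among 10 tested receptors and decoy receptors for CC chemokines, 0 were called by edgeR, 1 was higher and 1 lower at an unadjusted p under 0.05, where 10.5% of all tested genes were higher and 10.8% lower. DESeq2 and limma-voom each called 2 receptors, against 6.79% and 19.5% of all genes in either direction. Ccr2, which binds Ccl2, Ccl7 and Ccl12 and was chosen after its values were seen, had means of 24.1 ± 16.6 CPM with saline and 30.5 ± 9.65 CPM with poly(I:C). Ccr3 had a log2 difference of −0.996 (edgeR adjusted p = 0.128) and Ackr1, a decoy receptor found on endothelium, of 2.31 (adjusted p = 0.212), with 358 of its counts in poly(I:C) replicate 1 against 67 and 71 in the other poly(I:C) libraries.

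Genes that signal upstream of CC chemokines were taken as a pair of lists, and no difference between the lists was tested. These are transcript levels, and the activity of either pathway was not measured. Of 16 tested genes of RNA sensing and interferon signalling, 7 were higher in edgeR and 0 lower, among them Irf7, Stat2, Irf9, Tlr3, Ifih1 and Rigi, with log2 fold changes between 1.00 and 3.97, against 0.883% of all tested genes called higher. DESeq2 called 8 of the 16 and limma-voom 10, against 6.79% and 19.5% of all genes in either direction. Of 17 genes of NF-kB and cytokine signalling, 0 were called by edgeR, and 3 were higher and 5 lower at an unadjusted p under 0.05, against 10.5% and 10.8% of all tested genes. DESeq2 called 2 of these 17 and limma-voom 8. Rela, the NF-kB subunit p65, had a log2 difference of −0.43 (edgeR adjusted p = 0.140), Il1a one of 0.78 (adjusted p = 0.154) and Rel one of 0.36 (adjusted p = 0.169). The median log2 difference was 0.45 for the first list and −0.11 for the second, against 0.01 for all tested genes.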

How the data were processed

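The authors deposited raw read counts by gene symbol, without normalisation, with each library in a column of its own. The tools fastp, HISAT2 and HTSeq and the build GRCm39 are named in the submitters' processing notes, without versions, settings or roles. Full-length cDNA was amplified by PCR before Nextera XT libraries were made, per the labels' protocols, so a count is a read and several can stem from 1 molecule. No row holds unassigned reads.

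Counts were filtered with filterByExpr, scaled by TMM and tested with glmQLFTest in edgeR 4.0.16 (R 4.3.3), with 6 libraries, no covariate and Benjamini-Hochberg adjustment over all tested genes. Intervals use the standard error (the size of the log2 fold change over the root of F) and the fit's degrees of freedom. DESeq2 1.42.0 and limma 3.58.1 were alternatives, with other scalings, filters, a replicate block and left-out libraries. The fit was tested on simulated data. Replicates of a group differed by a chi-square per gene of 21.2 to 113, so none was treated as a duplicate.

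The members and lists were chosen with earlier results of these data known. The rule for named genes took all 9 members, per list the 3 genes with the smallest p or all called ones, Fos and Egr1, and the 2 genes most like each member. Names outside this pool are said to be chosen later. Sequences, gene order and exon lengths came from RefSeq (GRCm38.p6) and GENCODE vM21, matched by symbol, and no coordinate was used with the counts. Coding sequences were aligned with Biopython 1.88. A few items of these lists and sequences are not reported here.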

Additional observations from a re-analysis of the deposited data

How the results depend on the processing

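The direction of Ccl2, Ccl4, Ccl5, Ccl6, Ccl7, Ccl8 and Ccl12 held in every alternative that gave a value, and Ccl8 did not reach the filter of 5 CPM in 3 libraries. Ccl9 turned to 0.000158 in limma-voom. With 1 library left out at a time, the log2 fold change of Ccl3 ranged from −0.0357 to 0.326. Members called higher numbered 0 with all libraries and with RLE scaling, 2 with upper-quartile scaling, with library totals alone and without a filter (Ccl5 and Ccl12 each time), 1 with the filter of 5 CPM (Ccl5), 3 in DESeq2 and 4 in limma-voom. With 1 library left out they numbered from 0 to 1, and 2 without both replicates 1. The number of members called lower was 0 in all these fits.

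Over all genes, 130 higher and 11 lower calls became 557 and 448 in DESeq2, 1268 and 1608 in limma-voom, and 355 and 214 without both replicates 1. Higher genes numbered 124 with RLE scaling, 167 with upper-quartile scaling and 155 with library totals alone, and lower genes 10 in each. Without a filter 147 genes were higher and 18 lower, and with the 5 CPM filter 146 and 16. Leaving out 1 library gave from 51 to 167 higher and from 0 to 20 lower genes. The call of Ccl19 among the other CC chemokines fell to 0 without a filter, with the 5 CPM filter (where it was not tested), without both replicates 1 and without any 1 library, and limma-voom called 2 there. Receptors called numbered 2 in DESeq2 and in limma-voom, 1 without both replicates 1 and 0 with any 1 library left out. NF-kB and cytokine genes called numbered 2 in DESeq2, 8 in limma-voom, 1 without both replicates 1, and from 0 to 1 with 1 library left out. The causes were not tested. Depth limits the genes described with few counts, such as Ccl8, Ccl19, Ccl21a, Ackr1, Cd3d, Cd3e and Cd3g, and Ccl1 and Ccl20, which had none.

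Same-numbered saline and poly(I:C) libraries had deviations from their group means that correlated at 0.11, −0.12 and 0.19, with saline replicate 1 and poly(I:C) replicate 3 correlating best with their own numbers and the other 4 libraries not. As 1 of the 3 correlations was below 0 and the labels name no shared batch, the numbers were not taken as pairs. With a replicate block 2 members were called (Ccl5 at an edgeR adjusted p of 0.0263 and Ccl12 at 0.0155), 171 genes were higher and 89 lower, and 0 other CC chemokines were called.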
